A study of Mus musculus with 16 samples.

Results

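The heat shock chaperones described here are 10 genes: Hspa1a, Hspa1b, Hspa8, Hsph1, Dnajb1, Hsp90aa1, Hsp90ab1, Hspd1, Hspe1 and Hspb1. Every probe set to which the platform annotation gives the symbol of a member was taken, whatever its level. That gave 22 probe sets of 9 genes, out of 45037 probe sets and 18193 named genes on the array, and all 22 were bright enough to be tested. No probe set carried the symbol Hsp90ab1 in the annotation used, so that gene was not analysed here. The series profiled mouse B cells on 16 Affymetrix arrays, 4 for each of 4 groups, and asked how B6.Sle2c1 mice differ from C57BL/6 (B6) mice in peritoneal and in splenic B cells. The groups were B1a cells of B6.Sle2c1 mice, B1a cells of B6 mice, splenic B (Bs) cells of B6.Sle2c1 mice and Bs cells of B6 mice, all at 5 months of age and with no drug treatment named. Sle2c1 is a congenic interval from a lupus-prone strain, carried on the B6 background, and it holds Cdkn2c, the gene of the cell cycle inhibitor p18INK4c. The interval is present in every cell of these mice, so no driver restricts it to B cells.

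B1a cells are a self-renewing B cell population of the body cavities that carries CD5, whereas most Bs cells are follicular. The 2 preparations were handled differently. Per the labels, peritoneal cells spent 2 h in culture with 10% serum so that macrophages could adhere, were depleted of T cells with Thy1.2 and CD3ε antibodies and were then selected with a CD5 antibody, which gave 80% B220int CD5+ cells. Bs cells were isolated as CD43-negative cells with a kit, with no such culture named, and over 90% were B220hi. Cell type, organ, culture and antibody handling therefore cannot be told apart in any B1a against Bs comparison below. In bulk RNA, fewer cells of a type and less RNA per cell cannot be told apart either.

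Heat shock proteins are molecular chaperones that bind unfolded or folding proteins. Cytosolic Hsp70 proteins work in cycles with J domain proteins, which deliver clients and stimulate ATP hydrolysis, and with nucleotide exchange factors such as Hsp110, and they pass some clients on to Hsp90. The transcription factor HSF1 is held back by chaperones at rest and, when unfolded protein accumulates, binds heat shock elements in the promoters of the inducible members, among them Hspa1a, Hspa1b, Dnajb1, Hsph1 and Hspb1, while Hspa8 is made constitutively.

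Hspa1a and Hspa1b encode nearly the same Hsp70 protein, and their promoters are nearly the same too. In the RefSeq promoter table (assembly GRCm38.p6) the 300 base windows of the 2 genes, from 250 bases before to 50 bases after the start, differed at 4 bases (98.7% identical), and the 250 upstream bases differed at 3. These upstream sequences, and those of Hspb1 and Hspe1, are shown because they place members of unlike behaviour on these arrays beside each other. Capitals mark matches to the 2-unit heat shock element GAANNTTC or TTCNNGAA, which read the same on both strands. All sequences run 5′ to 3′ on the strand of the gene.
Hspa1a, chr17:34972157-34972406, minus strand: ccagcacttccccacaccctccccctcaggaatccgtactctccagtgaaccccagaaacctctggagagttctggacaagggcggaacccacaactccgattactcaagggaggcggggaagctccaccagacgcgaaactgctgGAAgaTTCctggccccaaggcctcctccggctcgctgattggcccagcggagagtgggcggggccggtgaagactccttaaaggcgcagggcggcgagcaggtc
Hspa1b, chr17:34959239-34959488, minus strand: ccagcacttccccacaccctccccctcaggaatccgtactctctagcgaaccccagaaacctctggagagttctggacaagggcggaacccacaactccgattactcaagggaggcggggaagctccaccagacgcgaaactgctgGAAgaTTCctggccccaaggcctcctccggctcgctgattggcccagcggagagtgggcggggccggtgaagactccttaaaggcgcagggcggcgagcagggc
Hspb1, chr5:135887669-135887918, plus strand: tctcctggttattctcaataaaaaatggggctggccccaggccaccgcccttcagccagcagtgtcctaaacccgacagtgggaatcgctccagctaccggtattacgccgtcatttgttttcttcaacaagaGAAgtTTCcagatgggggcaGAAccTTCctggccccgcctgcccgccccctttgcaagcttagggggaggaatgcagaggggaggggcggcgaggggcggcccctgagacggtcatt
Hspe1, chr1:55087898-55088147, plus strand: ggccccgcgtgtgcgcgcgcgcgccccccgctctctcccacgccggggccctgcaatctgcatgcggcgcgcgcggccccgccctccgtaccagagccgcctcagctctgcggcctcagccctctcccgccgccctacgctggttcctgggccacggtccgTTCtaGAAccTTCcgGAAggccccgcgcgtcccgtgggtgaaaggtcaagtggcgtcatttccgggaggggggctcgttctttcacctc
Hspa1a and Hspa1b each held 1 match, which began at position -104 relative to the start. Hspb1 held 2 matches that did not overlap. Hspe1 held 3 overlapping matches, which together formed 2 overlapping matches to the 3-unit form, which adds 1 more unit in the opposite direction at the same spacing. The second RefSeq window of Hspd1 held the same stretch on the other strand, since Hspd1 and Hspe1 are neighbours that point away from each other, and its first window held 0. Hsph1 held 3 matches in either of its windows, of which 2 lay after the start and formed 1 match to a 3-unit form, and Dnajb1 held 0 in both of its windows. Among all 32851 windows of the table, 15.1% held a 2-unit match and 0.603% a 3-unit match. Letters alone do not show a site in use, and no match in these windows says nothing of elements elsewhere.

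The deposited value of a probe set is a score that behaves like a log signal, whose scale is not given in the sources used here. Differences are therefore given in units of the score and never as folds, and levels are compared within a probe set only. Values under 0.495 were raised to 0.495, called the floor. A difference passed when limma gave an adjusted p under 0.05 over all 35032 probe sets tested. Array medians ranged from 0.68 to 1.12 units. Cdkn2c checked the strain labels: it averaged 0.613 ± 0.183 units in Sle2c1 B1a cells and 1.21 ± 0.132 in B6 B1a cells, and 0.521 ± 0.0525 in Sle2c1 Bs cells and 1.41 ± 0.172 in B6 Bs cells (SD, n = 4 each), with no overlap between the strains. Of 8 B1a markers, 5 were higher in B1a than in Bs cells of Sle2c1 mice and 6 in B6 mice, and Cd5 lay at the floor on all Bs arrays. Cd5 was dim in B1a cells too. It averaged 0.745 ± 0.342 units in Sle2c1 B1a cells, with 2 arrays at the floor, and 1.08 ± 0.304 in B6 B1a cells (SD). Sle2c1 B1a array 4, B6 Bs arrays 1 and 3 and Sle2c1 Bs array 3 had stood apart from their groups in an earlier description of these data, and results that change without them are given both ways.

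**Figure D1:**
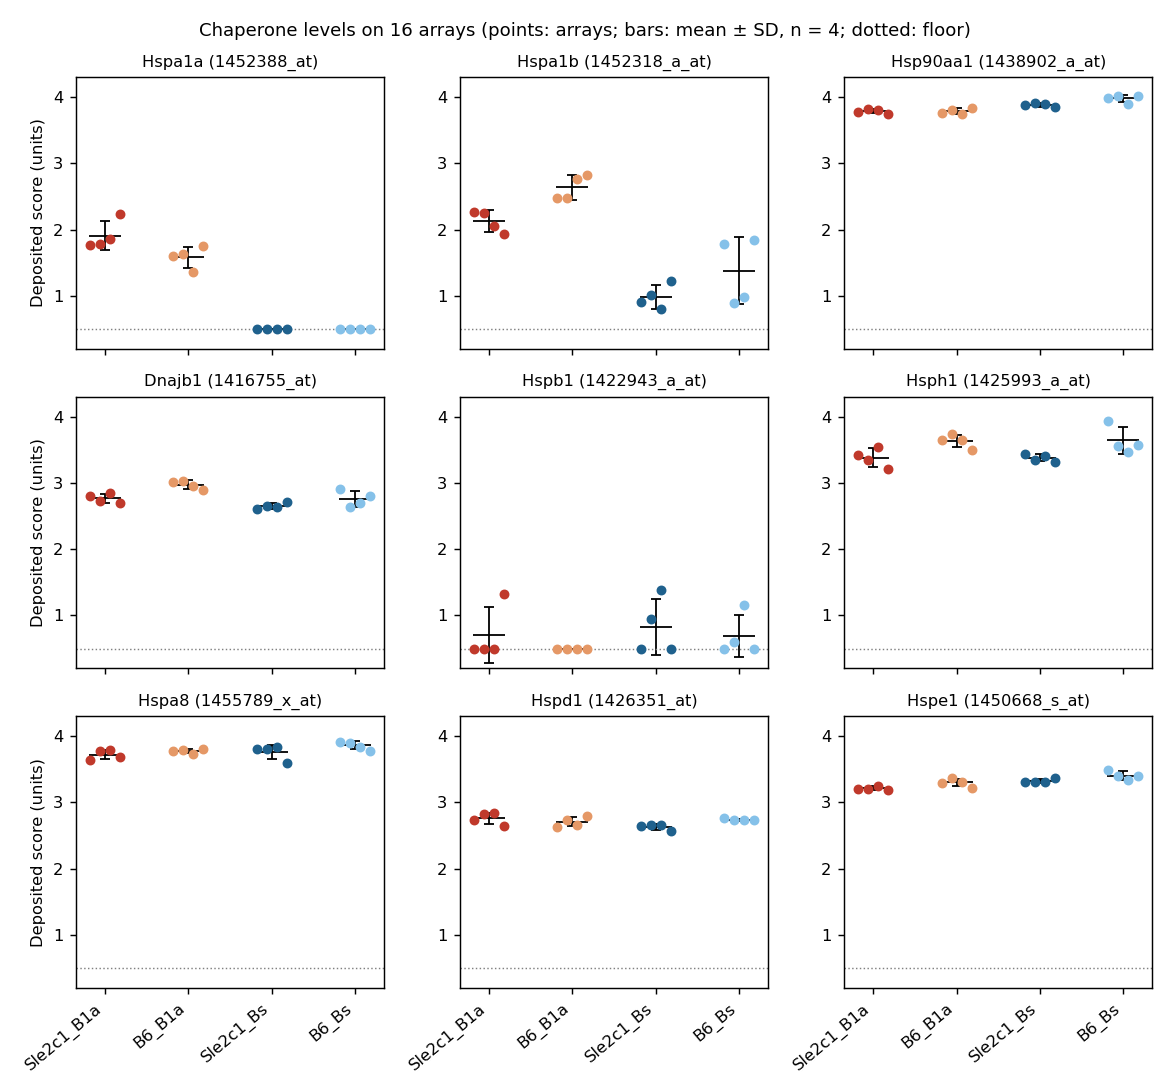
Level of the probe set with the highest mean of each of the 9 genes on 16 arrays, in units of the deposited score (y axis), by group (x axis); points are arrays, bars give the mean and SD of 4 arrays, and the dotted line is the floor of 0.495. Hspa1a lies between 1.36 and 2.23 on the 8 B1a arrays and at the floor on the 8 Bs arrays, Hspa1b is lower in Bs cells with 2 B6 Bs arrays at 1.79 and 1.84, and the other 7 genes differ little between the groups.

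The inducible Hsp70 genes Hspa1a and Hspa1b were higher in B1a than in Bs cells of both strains. Hspa1a (1452388_at) read 1.77, 1.79, 1.86 and 2.23 units on the 4 Sle2c1 B1a arrays and 1.60, 1.63, 1.36 and 1.75 on the 4 B6 B1a arrays. On the Bs arrays of both strains it lay at the floor throughout, and on 4 of 4 Sle2c1 and 3 of 4 B6 Bs arrays it was at the lowest value of the array. Hspa1a was at least 1.42 ± 0.0973 units higher in B1a than in Bs cells of Sle2c1 mice (SE, limma adjusted p = 8.79e-08) and at least 1.09 ± 0.0973 higher in those of B6 mice (adjusted p = 1.69e-06). Differences at or above these were found for 0.716% and 1.24% of all probe sets tested in Sle2c1 and in B6 mice.

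Hspa1b rose as well and was not silent in Bs cells. Its brightest probe set, 1452318_a_at, read 2.27, 2.25, 2.06 and 1.93 units on the Sle2c1 B1a arrays, against 0.91, 1.02, 0.80 and 1.22 on the Sle2c1 Bs arrays. It read 2.48, 2.47, 2.77 and 2.83 on the B6 B1a arrays, against 1.79, 0.90, 0.98 and 1.84 on the B6 Bs arrays. The B1a and Bs arrays did not overlap in either strain. By this probe set the B6 Bs arrays fell into a high and a low pair, arrays 1 and 4 against arrays 2 and 3. The B1a minus Bs difference was 1.14 ± 0.197 units in Sle2c1 mice (adjusted p = 0.000704) and 1.26 ± 0.197 in B6 mice (adjusted p = 0.000406). A second probe set, 1427127_x_at, gave 1.23 ± 0.226 (adjusted p = 0.00112) and 1.24 ± 0.226 (adjusted p = 0.0014). It read 1.68, 0.57, 1.22 and 1.55 on the B6 Bs arrays, with array 3 nearer to arrays 1 and 4 than to array 2. The third, 1427126_at, passed in B6 mice at 1.33 ± 0.195, with 3 of 4 Bs arrays at the floor (adjusted p = 0.000235). In Sle2c1 mice it gave 0.44 ± 0.195 and did not pass (adjusted p = 0.115). There 2 of 4 B1a arrays and every Bs array lay at the floor, so this size depends on the floor and is not a lower bound. The Hspa1a and Hspa1b transcripts are close enough that a probe set of either may take up signal of the other, and the suffix _x_at marks a probe set with probes known to match further transcripts. The levels of the 2 genes are uncertain to that extent.

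Dnajb1, the J domain partner of inducible Hsp70, moved the same way by much less. Its probe set 1416755_at read 2.80, 2.73, 2.85 and 2.70 units on the Sle2c1 B1a arrays, against 2.61, 2.65, 2.63 and 2.71 on the Sle2c1 Bs arrays. In B6 mice it read 3.02, 3.03, 2.95 and 2.89 on the B1a arrays, against 2.91, 2.63, 2.70 and 2.80 on the Bs arrays. By this probe set the arrays of the 2 cell types overlapped in both strains. Dnajb1 passed in B6 mice by both probe sets, at 0.21 ± 0.0667 (adjusted p = 0.0375) and, for 1416756_at, at 0.34 ± 0.0895 (adjusted p = 0.0155), and by neither in Sle2c1 mice, where the differences were 0.12 ± 0.0667 (adjusted p = 0.206) and 0.24 ± 0.0895 (adjusted p = 0.0645). The strains' differences did not themselves differ past the test (interaction adjusted p = 0.93 and 0.952). For 1416755_at the call in B6 mice ended without B6 B1a array 1, 2 or 3, without B6 Bs array 2, 3 or 4 or without Sle2c1 Bs array 2 (adjusted p up to 0.122), and also with no floor, with median centring, with only the groups compared and with the replicate block (0.0512 to 0.242). That of 1416756_at ended with median centring, equal median and spread, a trended robust variance and only the groups compared (adjusted p = 0.0612 to 0.105). In Sle2c1 mice 1416756_at, whose B1a and Bs arrays did not overlap, passed with the filter on all 16 arrays (adjusted p = 0.0289), with only the groups compared (0.0274), without the 4 arrays that stood apart (0.0113) and without B6 Bs array 1 (0.00934).

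Hsph1, the Hsp110 exchange factor of Hsp70, and Hspb1, the small heat shock protein Hsp27, showed no such step. Hsph1 (1425993_a_at) read 3.42, 3.35, 3.54 and 3.21 units on the Sle2c1 B1a arrays, against 3.43, 3.35, 3.40 and 3.32 on the Sle2c1 Bs arrays. On the B6 B1a arrays it read 3.65, 3.73, 3.65 and 3.50, against 3.94, 3.56, 3.47 and 3.57 on the B6 Bs arrays. The cell types overlapped throughout, with B1a minus Bs differences of 0.01 ± 0.0979 in Sle2c1 mice and 0.00 ± 0.0979 in B6 mice. The other Hsph1 probe set, 1423566_a_at, gave -0.21 ± 0.196 (adjusted p = 0.469) and 0.02 ± 0.196 (adjusted p = 0.967), also with overlap. Hspb1 lay near the floor: by 1422943_a_at it was above the floor on 1 Sle2c1 B1a array (1.33), on 0 B6 B1a arrays, on 2 Sle2c1 Bs arrays (0.95 and 1.38) and on 2 B6 Bs arrays (0.60 and 1.16). By 1425964_x_at it was above the floor on 1 Sle2c1 B1a, 2 B6 B1a, 1 Sle2c1 Bs and 2 B6 Bs arrays. No order of the groups can be read from such values.

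Hsp90aa1, the inducible cytosolic Hsp90, had 5 probe sets that did not tell the same story. The brightest, 1438902_a_at, read 3.78, 3.82, 3.81 and 3.75 units on the Sle2c1 B1a arrays and 3.88, 3.91, 3.89 and 3.85 on the Sle2c1 Bs arrays. It read 3.76, 3.80, 3.74 and 3.84 on the B6 B1a arrays and 3.99, 4.01, 3.89 and 4.01 on the B6 Bs arrays, so that B1a arrays were lower in both strains without overlap. The difference of -0.19 ± 0.0496 passed in B6 mice (adjusted p = 0.0154). That call ended under 2 of 13 alternatives (adjusted p up to 0.372), among them quantile normalization, which left -0.09 (adjusted p = 0.212). It also ended without B6 Bs array 2 (-0.18, adjusted p = 0.0505). The difference of -0.09 ± 0.0496 in Sle2c1 mice did not pass (adjusted p = 0.19) and turned to 0.05 under quantile normalization. In contrast, 1437497_a_at was higher in Sle2c1 B1a cells by 0.27 ± 0.071 (adjusted p = 0.0127) and 1426645_at by 0.26 ± 0.0847 (adjusted p = 0.0372). The call of 1437497_a_at ended under median centring (adjusted p = 0.206). That of 1426645_at ended under 3 of 12 alternatives, with the highest adjusted p under median centring (0.186). It also ended without Sle2c1 B1a array 2 or 3 or Sle2c1 Bs array 1, 2 or 4 (adjusted p up to 0.0987). In B6 mice these gave 0.15 ± 0.071 (adjusted p = 0.171) and 0.19 ± 0.0847 (adjusted p = 0.137).

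The remaining bright Hsp90aa1 probe set, 1441827_x_at, had the lowest difference of the 22 in both strains. It read 2.10, 2.15, 2.17 and 2.12 units on the Sle2c1 B1a arrays, against 3.64, 3.65, 3.68 and 3.52 on the Sle2c1 Bs arrays. On the B6 B1a arrays it read 1.94, 1.91, 1.83 and 1.84, against 3.75, 3.79, 3.68 and 3.77 on the B6 Bs arrays. The differences were -1.49 ± 0.0539 in Sle2c1 mice (adjusted p = 8.86e-11) and -1.87 ± 0.0539 in B6 mice (adjusted p = 9.17e-12), and differences this low or lower were found for 0.348% and 0.123% of all probe sets. With the other probe sets of the gene between -0.19 and 0.27, and with the suffix _x_at, this value cannot be given to Hsp90aa1 itself. The fifth, 1433251_at, was at the floor on every Bs array and on 2 of 4 B1a arrays of either strain.

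Among the constitutive and mitochondrial members no probe set passed between the cell types in the main fit. Hspa8, the constitutive Hsc70, had 4 probe sets with B1a minus Bs differences from -0.04 to 0.09 in Sle2c1 mice and from -0.08 to 0.10 in B6 mice. Its brightest, 1455789_x_at, averaged 3.72 ± 0.0699 units in Sle2c1 B1a cells and 3.76 ± 0.112 in Sle2c1 Bs cells, and 3.78 ± 0.0311 in B6 B1a cells and 3.86 ± 0.0602 in B6 Bs cells (SD, n = 4 each). Hspd1, the mitochondrial chaperonin Hsp60, gave 0.13 ± 0.0576 in Sle2c1 mice (adjusted p = 0.115) and -0.03 ± 0.0576 in B6 mice (adjusted p = 0.742). Hspe1, the cochaperonin Hsp10 that caps it, gave -0.12 ± 0.0521 in Sle2c1 mice (1450668_s_at, adjusted p = 0.123), with lower values on every B1a array than on any Bs array, and -0.11 ± 0.0521 in B6 mice (adjusted p = 0.177). The other Hspe1 probe set, 1422579_at, gave -0.03 ± 0.0596 (adjusted p = 0.771) and -0.08 ± 0.0596 (adjusted p = 0.364), with overlap. Some alternatives to the main fit gave calls. In Sle2c1 mice Hspe1 1450668_s_at passed under 3 of 13 (adjusted p down to 0.0236) and Hspd1 under 3 of 13 (down to 0.036). Hspd1 also passed there with an array left out (adjusted p down to 0.0427). In B6 mice Hspe1 1450668_s_at passed under 2 of 13 (adjusted p down to 0.0437).

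**Figure D2:**
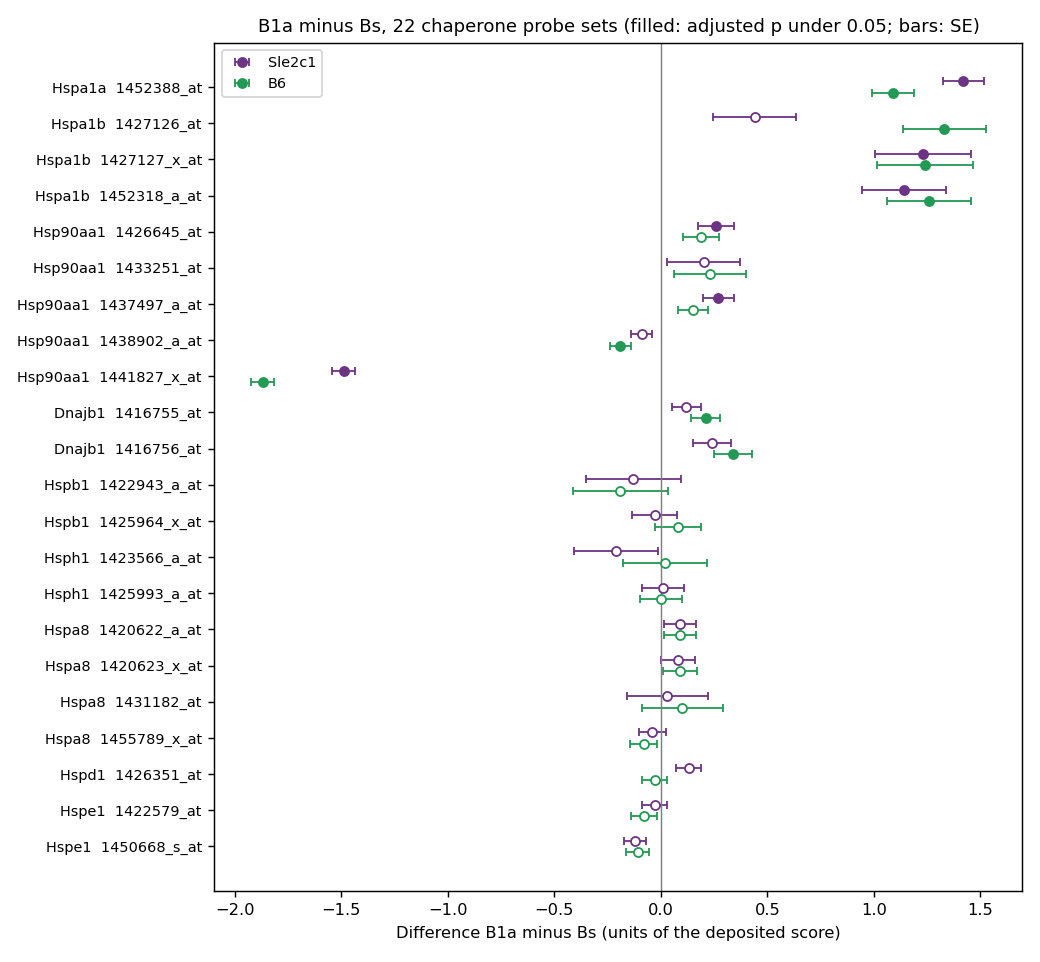
B1a minus Bs difference of the 22 chaperone probe sets (y axis) in units of the deposited score (x axis), for Sle2c1 mice (upper of each pair) and B6 mice (lower); bars are the SE and filled points passed at an adjusted p under 0.05. The Hspa1a and Hspa1b probe sets lie between 0.44 and 1.42, Hsp90aa1 1441827_x_at lies at -1.49 and -1.87, and all others lie between -0.21 and 0.34.

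In all, 6 of 22 chaperone probe sets passed between B1a and Bs cells of Sle2c1 mice, 5 higher and 1 lower, where 24.8% of all probe sets tested passed, 11.1% higher and 13.7% lower. In B6 mice 8 of 22 passed, 6 higher and 2 lower, where 19.9% of all passed, 9.21% higher and 10.7% lower. The arrays did not overlap for 5 higher and 3 lower of 22 in Sle2c1 mice, beside 24.7% of all probe sets (10.2% higher and 14.4% lower). In B6 mice they did not overlap for 4 higher and 2 lower, beside 22.1% of all (11.2% higher and 10.9% lower). The count in Sle2c1 mice was thus near that of the array as a whole. The median difference over the 22 chaperone probe sets was 0.085 in Sle2c1 and 0.086 in B6 mice, beside -0.026 and -0.028 for all tested. These medians count genes with several probe sets more than once. Over the 9 genes, each by its brightest probe set, the median was 0.005 in Sle2c1 mice, with 5 positive and 4 negative. In B6 mice it was -0.033, with 3 positive and 6 negative. At 1 probe set per gene, Hspa1a and Hspa1b were higher in Sle2c1 B1a cells, and in B6 B1a cells Hspa1a, Hspa1b and Dnajb1 were higher and Hsp90aa1 was lower. The Hspa1a call and those of Hspa1b by 1452318_a_at and 1427127_x_at held under every alternative run for them in both strains, with every single array left out and without the 4 arrays that stood apart.

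Of 88 other genes of the heat shock pathway, 79 could be tested. In Sle2c1 mice 17 were higher and 3 lower in B1a than in Bs cells, and in B6 mice 7 were higher and 4 lower, with medians of 0.12 and 0.08. Of all probe sets tested, 11.1% were higher and 13.7% lower in Sle2c1 mice, and 9.21% and 10.7% in B6 mice. The list counts that follow, at 1 probe set per gene, are to be read beside these shares, and several lie near them. Hsf1 and Hsf5 were not among the genes tested. Of the regulators Hsf2, Hsf4, Hsbp1 and Hikeshi, 0 of 4 passed in either strain, and none differed by more than 0.36 units (Hsf4 in Sle2c1 mice, adjusted p = 0.182). Among Hsp70 exchange factors and adaptors, 5 of 13 were higher and 0 lower in Sle2c1 B1a cells, and 2 and 0 in B6 B1a cells. Bag5, a BAG domain exchange factor, was higher in both, by 0.34 ± 0.0796 in Sle2c1 mice (adjusted p = 0.00596) and 0.33 ± 0.0796 in B6 mice (adjusted p = 0.0106). Bag1 was higher in Sle2c1 mice by 0.30 ± 0.0596 (adjusted p = 0.00201), and the exchange factor Hspbp1 by 0.37 ± 0.126 in Sle2c1 mice (adjusted p = 0.0451) and 0.50 ± 0.126 in B6 mice (adjusted p = 0.0131).

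Of 17 J domain genes, 3 were higher and 1 lower in each strain. Dnaja4 averaged 1.48 ± 0.0974 units in Sle2c1 B1a cells and 0.935 ± 0.155 in Sle2c1 Bs cells, and 1.57 ± 0.112 in B6 B1a cells and 0.604 ± 0.218 in B6 Bs cells (SD, n = 4 each). It rose by 0.55 ± 0.108 in Sle2c1 mice (adjusted p = 0.00191) and by 0.97 ± 0.108 in B6 mice (adjusted p = 1.75e-05), where 3 of 4 Bs arrays lay at the floor, so that the size in B6 mice depends on it. Dnajc9, a J domain histone chaperone, was lower by 0.54 ± 0.0552 in Sle2c1 mice (a difference of -0.54, adjusted p = 5.89e-06) and by 0.44 ± 0.0552 in B6 mice (-0.44, adjusted p = 5.04e-05). Of 10 genes of the Hsp90 family and its cochaperones, 2 were higher and 1 lower in Sle2c1 B1a cells, and 0 and 1 in B6 B1a cells. The higher genes were Pih1d1 (0.29 ± 0.0625, adjusted p = 0.00404) and Ahsa2 (0.20 ± 0.0657, adjusted p = 0.0388), which in B6 mice gave 0.17 (adjusted p = 0.0741) and 0.11 (adjusted p = 0.265). Cdc37l1, a relative of the kinase cochaperone Cdc37, was lower in both strains (-0.61 ± 0.0576, adjusted p = 2.42e-06 in Sle2c1 mice and -0.70 ± 0.0576, adjusted p = 7.67e-07 in B6 mice). Of 14 subunits of the cytosolic chaperonin CCT and of prefoldin, 4 were higher in Sle2c1 B1a cells, among them Cct3 (0.21 ± 0.0565, adjusted p = 0.0152), and 0 of 14 passed in B6 mice. The small heat shock proteins gave 1 higher (Hspb11, 0.26 ± 0.0734, adjusted p = 0.0196) and 0 lower of 6 in Sle2c1 mice, and 1 higher (Hspb11, 0.34 ± 0.0734, adjusted p = 0.00521) and 1 lower (Hspb8, with all B6 B1a arrays at the floor, adjusted p = 0.0481) in B6 mice. Mitochondrial import and exchange genes gave 1 of 8 higher in Sle2c1 mice, the exchange factor Grpel1 (0.25 ± 0.0674, adjusted p = 0.0145), and 0 in B6 mice. Of the other Hsp70 and Hsp110 family members, 1 of 7 was higher and 1 lower in each strain. The higher gene was Hspa2 in Sle2c1 mice (0.48 ± 0.0605, adjusted p = 4.15e-05) and Hspa12a in B6 mice (0.56 ± 0.17, adjusted p = 0.0312), and the lower gene was Hspa4l in both (-0.44 ± 0.147, adjusted p = 0.0411, and -0.49 ± 0.147, adjusted p = 0.0318). For Hspa12a 3 of 4 B6 Bs arrays lay at the floor, so that its size depends on the floor.

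**Figure D3:**
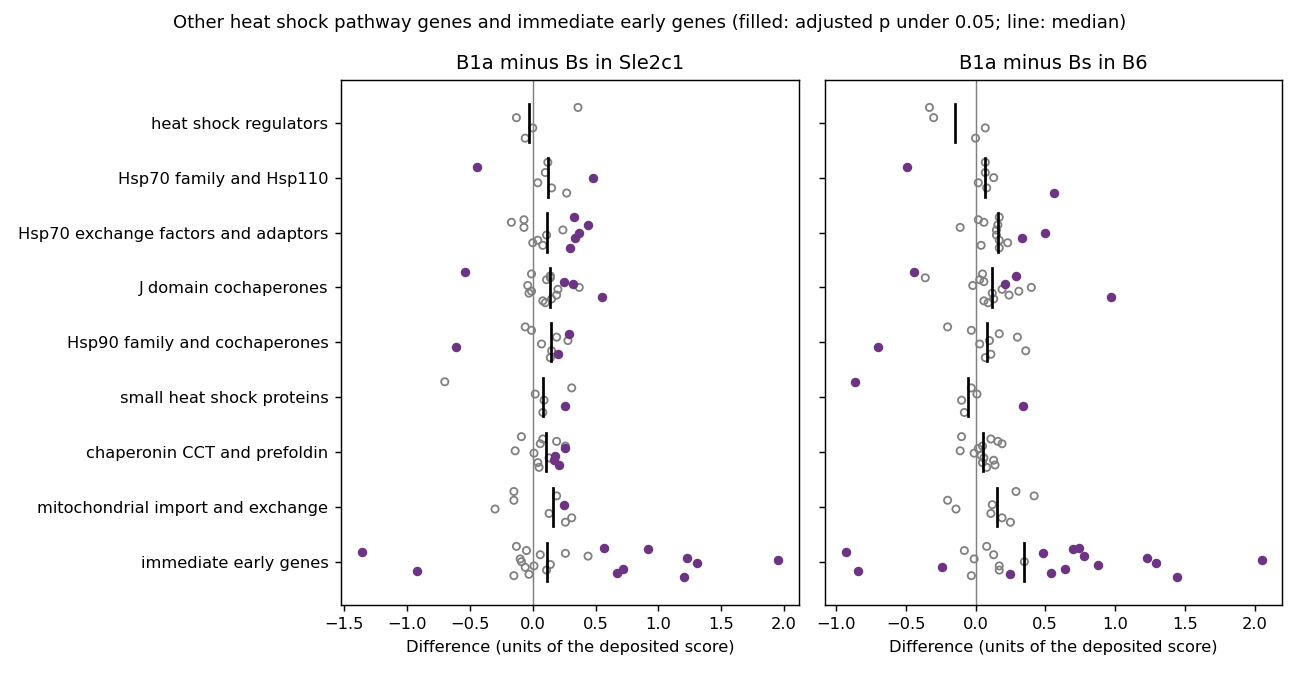
B1a minus Bs difference in units of the deposited score (x axis) of 79 other heat shock pathway genes in 8 lists and of 23 immediate early genes (y axis), in Sle2c1 mice (left) and B6 mice (right); each point is a gene, filled points passed at an adjusted p under 0.05 and black lines are list medians. Pathway genes mostly lie within 1 unit of 0, whereas the immediate early genes reach 1.95 in Sle2c1 and 2.05 in B6 mice (Ier3).

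Other genes moved between B1a and Bs cells beside the Hsp70 genes, and their part in the result was not tested. Of 23 immediate early genes, whose transcription responds within minutes to stimulation, 8 were higher and 2 lower in Sle2c1 B1a cells and 12 higher and 3 lower in B6 B1a cells. For these and the marker lists below, the shares of all probe sets tested were 11.1% higher and 13.7% lower in Sle2c1 mice. In B6 mice they were 9.21% and 10.7%. Jun was 1.23 ± 0.0526 units higher in both strains (adjusted p = 5.18e-10 and 5.86e-10), Ier3 at least 1.95 ± 0.114 in Sle2c1 mice (adjusted p = 1.58e-08) and 2.05 ± 0.114 in B6 mice, with 3 of 4 Bs arrays at the floor (adjusted p = 1.09e-08), and Fosl2 1.31 ± 0.0866 and 1.29 ± 0.0866 (adjusted p = 5.83e-08 and 8.5e-08). The mean of the whole list ranged over the arrays from 2.40 to 2.56 units in Sle2c1 B1a cells, against 2.12 to 2.23 in Sle2c1 Bs cells, and from 2.55 to 2.74 in B6 B1a cells, against 2.19 to 2.24 in B6 Bs cells. Mast cell markers were also higher in B1a preparations, 4 of 8 in Sle2c1 and 7 of 8 in B6 mice. Their list mean ranged from 1.07 to 1.59 in Sle2c1 B1a cells, against 0.540 to 0.683 in Sle2c1 Bs cells, where Mcpt4, Tpsb2, Hdc and Tpsab1 were at the floor. In B6 mice it ranged from 1.52 to 1.83 in B1a cells, against 0.533 to 0.622 in Bs cells, where Mcpt4 and Tpsb2 were at the floor. Of 16 macrophage markers, 2 were higher and 5 lower in Sle2c1 B1a cells, and 8 higher and 1 lower in B6 B1a cells. Cd14 was higher by at least 2.28 ± 0.155 in Sle2c1 mice (adjusted p = 8.01e-08), where it lay at the floor on all Bs arrays, and by 2.37 ± 0.155 in B6 mice (adjusted p = 5.93e-08), where 3 of 4 Bs arrays lay at the floor. The other higher marker in Sle2c1 mice was Cd68 (0.83 ± 0.126, adjusted p = 0.000241), with 3 of 4 Bs arrays at the floor. In Sle2c1 mice the macrophage list mean ranged from 0.903 to 0.965 in B1a cells, with Csf1r, Apoe, C1qb, C1qc, Timd4, Marco and Msr1 at the floor, against 1.00 to 1.17 in Bs cells, with Cd14, C1qa, C1qb and C1qc at the floor. In B6 mice they ranged from 1.21 to 2.21 in B1a cells and from 1.18 to 1.37 in Bs cells, with no marker at the floor in either. Of the other marker lists, the counts higher and lower in B1a cells were 2 and 2 of 9 for T cells, 0 and 4 of 7 for NK cells, 2 and 1 of 6 for neutrophils, 1 and 0 of 6 for eosinophils, 0 and 2 of 7 for dendritic cells, 0 and 1 of 3 for erythroid cells, 0 and 2 of 4 for platelets and 0 and 0 of 5 for mesothelium and stroma in Sle2c1 mice. In B6 mice they were 3 and 2, 0 and 3, 2 and 2, 3 and 1, 0 and 1, 0 and 2, 1 and 2 and 0 and 0 in the same order. General B cell markers gave 0 and 5 of 7 in Sle2c1 mice and 0 and 4 in B6 mice, and follicular B cell markers 1 and 3 of 5 in each.

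Between the strains, few chaperone values changed. In B1a cells 2 of 22 probe sets passed, 1 higher and 1 lower in Sle2c1 mice, where 3.51% of all probe sets passed, 1.88% higher and 1.64% lower. Groups did not overlap for 6 of 22, 2 higher and 4 lower, where 8.36% of all did not overlap, 4.08% higher and 4.28% lower. Hspa1b was lower in Sle2c1 B1a cells by 1427126_at, which read 1.20 and 1.55 units on arrays 1 and 2 and lay at the floor on arrays 3 and 4, against 1.71, 1.53, 1.99 and 2.08 on the B6 B1a arrays. The difference was -0.89 ± 0.195 (adjusted p = 0.0202), the groups overlapped, and the exact two-sided permutation p was 0.0571, where 4 against 4 arrays cannot give less than 0.0286. The call ended without Sle2c1 B1a array 3 (adjusted p = 0.0508) or 4 (0.0502) and without B6 B1a array 3 (0.0639) or 4 (0.0531), and without the 4 arrays that stood apart (-0.75, adjusted p = 0.102). It also ended with no floor (adjusted p = 0.459), with only the groups compared (0.208) and with a block for replicate number inside each cell type (0.0847).

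The other Hspa1b probe sets ran the same way without passing, at -0.51 ± 0.197 for 1452318_a_at (adjusted p = 0.195) and -0.47 ± 0.226 for 1427127_x_at (adjusted p = 0.307), both with every Sle2c1 B1a array below every B6 B1a array. Hspa1a ran the opposite way: all 4 Sle2c1 B1a arrays, from 1.77 to 2.23, lay above all 4 B6 B1a arrays, from 1.36 to 1.75, and the difference of 0.33 ± 0.0973 missed the threshold (adjusted p = 0.0864, exact permutation p = 0.0286). The SE pools the spread of all 4 groups, and both Bs groups lay at the floor with an SD of 0. The SD of Hspa1a was 0.215 units in Sle2c1 B1a cells and 0.163 in B6 B1a cells. The tied Bs values lower the pooled SD to 0.135, below that of either B1a group. The limma adjusted p of Hspa1a ranged from 0.0521 to 0.944 under alternatives. With an array left out the difference ranged from 0.22 to 0.38 (adjusted p up to 0.225). The difference between the 2 genes was not tested, since probe sets are not compared with each other here. Dnajb1 was lower in Sle2c1 B1a cells without overlap by both probe sets and did not pass (-0.20 ± 0.0667, adjusted p = 0.122, and -0.25 ± 0.0895, adjusted p = 0.169). Of these, 1416755_at passed under 1 of 14 alternatives (adjusted p = 0.0407) and 1416756_at with 1 array left out (adjusted p = 0.038). Hsph1 gave -0.25 ± 0.0979 (1425993_a_at, adjusted p = 0.196), Hspa8 between -0.29 and -0.05, Hspd1 0.06 ± 0.0576 and Hspe1 -0.09 ± 0.0521, all with overlapping arrays.

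The probe set that passed upwards in Sle2c1 B1a cells was Hsp90aa1 1441827_x_at, at 0.26 ± 0.0539 units (adjusted p = 0.0163) without overlap. The other 4 Hsp90aa1 probe sets differed by -0.06 to 0.01 between the strains in B1a cells. For 1441827_x_at the strain differences in the 2 cell types also differed from each other, by 0.38 ± 0.0762 (interaction adjusted p = 0.0442), and it alone of the 22 passed that test, which 0.462% of all probe sets passed. With quantile normalization the strain difference in B1a cells was 0.21 (adjusted p = 0.0529) and with median centring 0.13 (adjusted p = 0.518), so that the call ended. It also ended with equal median and spread, with a block for replicate number inside each cell type, and without B6 B1a array 3 (adjusted p = 0.0557). The interaction call ended under quantile normalization and median centring too, and when any array but Sle2c1 B1a array 1 or B6 Bs array 3 was left out (adjusted p up to 0.123).

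Other markers differed between the strains' B1a preparations, where 1.88% of all probe sets tested were higher and 1.64% lower in Sle2c1 mice. Of 16 macrophage markers, 8 were lower and 0 higher in Sle2c1 B1a cells, with the list means given above (0.903 to 0.965 in Sle2c1, against 1.21 to 2.21 in B6). Other lists held calls too: of 9 T cell markers 1 was lower (Cd3g, -0.87 ± 0.178, adjusted p = 0.0139), and of 4 platelet markers 1 was lower (Pf4, -1.34 ± 0.231, adjusted p = 0.00412). Of 6 eosinophil markers 2 were lower (Epx, -0.66 ± 0.129, adjusted p = 0.00978, and Alox15, -1.07 ± 0.219, adjusted p = 0.0138) and 1 was higher (Ccr3, at least 0.96 ± 0.205, adjusted p = 0.0168). For Cd3g, Pf4, Epx and Alox15, 3 of 4 Sle2c1 B1a arrays lay at the floor, so that these sizes depend on it. No mast cell, NK cell, neutrophil, dendritic cell, erythroid, stromal or B cell marker passed. Of 23 immediate early genes 18 had lower means in Sle2c1 B1a cells and 1 passed, Ier2 (-0.74 ± 0.134, adjusted p = 0.0056). For Ier2 too, 3 of 4 Sle2c1 B1a arrays lay at the floor. The part of these cells and genes in the chaperone differences was not tested. Of the 79 other pathway genes, 0 passed in either direction between the strains in B1a cells, in Bs cells or in the interaction, with medians of 0.01, -0.013 and 0.018.

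In Bs cells 0 of 22 chaperone probe sets passed by limma between the strains, where 0.131% of all passed. At an unadjusted p under 0.05 there were 3 of 22, and 1209 of 35032 over all probe sets. The signs leaned downwards in Sle2c1 Bs cells: 18 of 22 differences were negative, 2 positive and 2 zero, while 42.1% of all probe sets were negative. Counted by probe set, the lean between the strains in B1a cells was similar. There 17 of 22 were negative and 5 positive, beside 45.6% of all negative. Counted at 1 probe set per gene it was not similar. By gene, 5 of 9 were negative and 4 positive in B1a cells, against 7 negative and 1 positive in Bs cells. Among probe sets with a mean above 2 units, 9 of 12 chaperone sets were negative in B1a cells, with a median of -0.057, beside 51.3% of all. In Bs cells all 12 chaperone sets were negative, with a median of -0.117, against 47.4% negative and a median of 0.003 for the 8189 such probe sets. Probe sets of a gene and genes on an array are not independent, and no test of these counts was made. The 3 without overlap were Hsph1 1425993_a_at (-0.26 ± 0.0979), Hsp90aa1 1437497_a_at (-0.19 ± 0.071) and Hspd1 (-0.11 ± 0.0576), all lower, beside 2.34% of all probe sets without overlap (1.24% higher and 1.1% lower). Their values show how small the steps were: Hspd1 read 2.64, 2.66, 2.66 and 2.57 units on the Sle2c1 Bs arrays, against 2.76, 2.73, 2.73 and 2.73 on the B6 Bs arrays. Hspa1a was at the floor in both strains and allows no comparison.

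**Figure D4:**
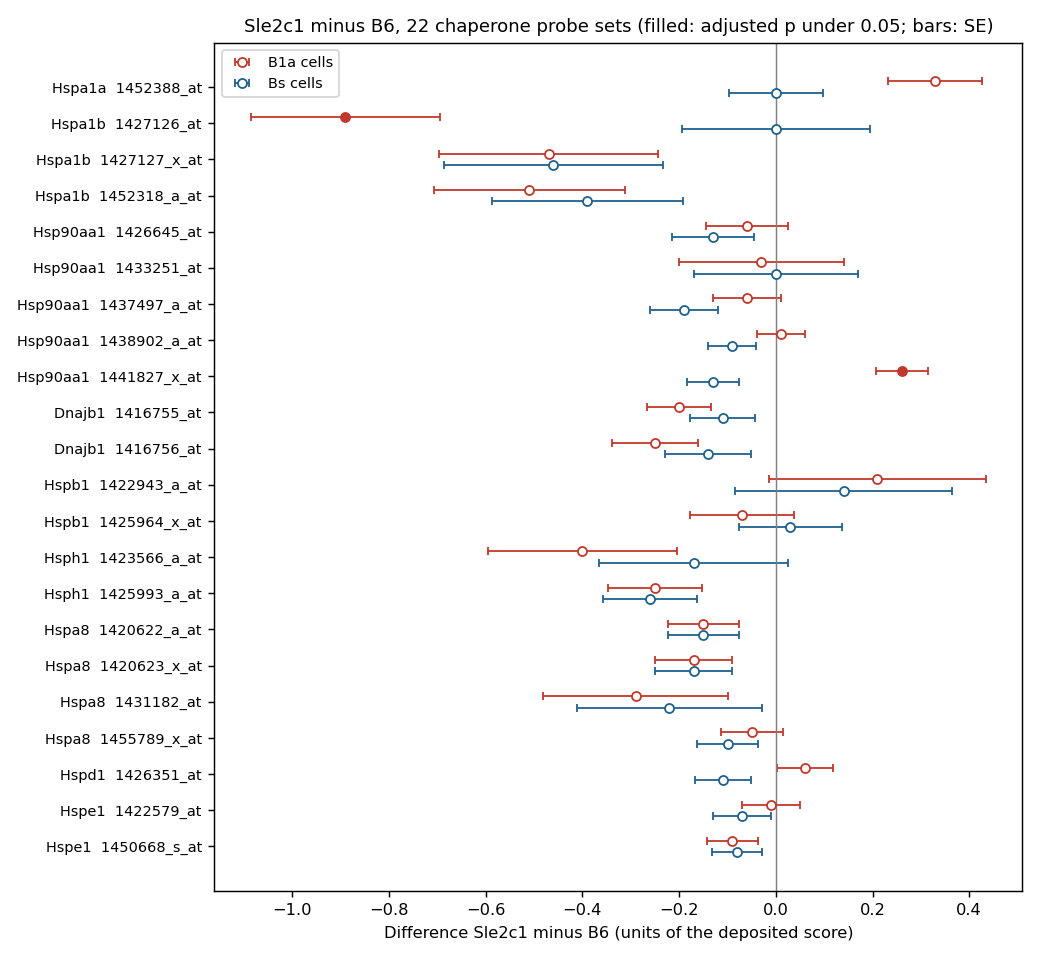
Sle2c1 minus B6 difference of the 22 chaperone probe sets (y axis) in units of the deposited score (x axis), in B1a cells (upper of each pair) and Bs cells (lower); bars are the SE and filled points passed at an adjusted p under 0.05. Only Hspa1b 1427126_at (-0.89) and Hsp90aa1 1441827_x_at (0.26) passed, both in B1a cells, and no Bs point passed.

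Set in order over the 4 groups, the members fell into patterns that mostly did not separate neighbours. For Hspa1a the order was Sle2c1 B1a (1.91), B6 B1a (1.58) and then both Bs groups at the floor, and only the step between B1a and Bs passed. For Hspa1b 1452318_a_at it was B6 B1a (2.64), Sle2c1 B1a (2.13), B6 Bs (1.38) and Sle2c1 Bs (0.988), with adjusted p = 0.195, 0.0133 and 1 for the neighbouring steps. Dnajb1 1416755_at had the same order as Hspa1b, 2.97, 2.77, 2.76 and 2.65, where no neighbours differed past the test and only the ends of the order did (adjusted p = 0.00292). Hsph1 was ordered by strain, with B6 Bs (3.64) and B6 B1a (3.63) above Sle2c1 B1a (3.38) and Sle2c1 Bs (3.38), and neither the neighbours nor the ends passed. Hspe1 1450668_s_at was highest in B6 Bs (3.40), then Sle2c1 Bs (3.32), B6 B1a (3.30) and Sle2c1 B1a (3.21), and only the ends differed past the test (adjusted p = 0.0155). Hsp90aa1 1438902_a_at was highest in B6 Bs (3.98), followed by Sle2c1 Bs (3.88) and by both B1a groups (3.79 each). Hspa8 1455789_x_at and Hspd1 spanned 3.72 to 3.86 and 2.63 to 2.76 units, with no step past the test.

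Within groups, some members varied together from array to array. After each group's mean was removed, the deviations of Hsph1 and Hspe1 over the 16 arrays correlated at r = 0.83 (Spearman 0.69), those of Dnajb1 and Hspe1 at 0.79 (0.80) and those of Dnajb1 and Hsph1 at 0.77 (0.70). Without the 2 arrays farthest from the median of the first gene these were 0.76, 0.80 and 0.67, and without B6 Bs array 1 alone they were 0.75, 0.69 and 0.65. Hsp90aa1 and Hspd1 gave 0.67, and Hspa8 and Hspd1 0.61. The inducible Hspa1b went with Dnajb1 at 0.56 (0.43 without B6 Bs array 1) but not with Hspa1a, at -0.21, whose Bs arrays all sit at the floor and add nothing to it. These are descriptions over 36 pairs of genes, with points that share an array and its scaling. B6 Bs array 1 carried the highest values of its group for Hsph1 (3.94), Dnajb1 (2.91) and Hspe1 (3.49) and the second highest for Hspa1b (1.79), and its mean standardised deviation of 1.02 was the largest of the 16. Arrays of a group spread most for Hspb1 and Hspa1b, with pooled SDs of 0.338 and 0.296 units, against a median of 0.077 for all probe sets with a mean above 2 and 0.0415 for Hsp90aa1 1438902_a_at.

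**Figure D5:**
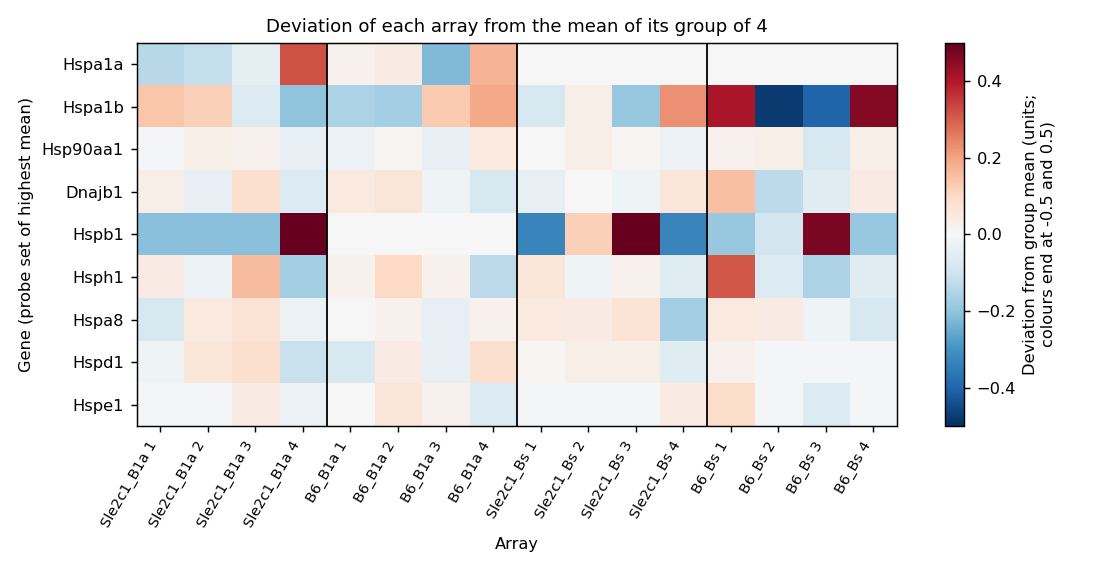
Deviation of each of the 16 arrays (x axis) from the mean of its group for the 9 chaperone genes (y axis), in units of the deposited score, with red above and blue below the group mean and colours that end at -0.5 and 0.5. B6 Bs array 1 is above its group for Hspa1b (0.41), Hsph1 (0.31), Dnajb1 (0.15) and Hspe1 (0.09), and Hspa1b, by 1452318_a_at, splits the B6 Bs arrays into 2 above and 2 below.

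Of 15120 other named genes, the 5 whose deviations over the 16 arrays were most like the mean standardised deviation of the chaperones were Elane (r = 0.839), Cdca5 (0.816), Dnaja2 (0.791), Elmo2 (0.776) and Smim15 (0.770). Dnaja2, a J domain partner of Hsc70, and Smim15 were well above the floor, with means of 3.08 and 3.15 units. Elane, Cdca5 and Elmo2 averaged 0.603, 0.767 and 0.743 units which is close to the floor.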

How the data were processed

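RNA of 16 samples was amplified and hybridised to Affymetrix mouse arrays, with 4 biological replicates per group per the series' design text. The authors deposited 1 score per probe set and array; the software, log base, centring and scaling are not given in the sources used here. On each array 22.8% to 35.6% of probe sets share the lowest value, which lies between -7.72 and -4.99. Of 45101 deposited probe sets, 64 controls were left out. The platform annotation gives 34958 probe sets 1 gene, 932 several and 9211 none, and of those with 1 gene 99.42% were matched to RefSeq symbols.

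Scores under 0.495 were raised to it, and a probe set was tested where it exceeded percentile 40 of the array on 4 or more of the 16 arrays, which left 35032. A model with 1 mean per group was fitted in limma 3.58.1 (R 4.3.3) over all of them, with Benjamini-Hochberg adjustment and a threshold of 0.05, for 5 comparisons: B1a minus Bs in each strain, Sle2c1 minus B6 in each cell type, and the interaction, which is the strain difference in B1a cells minus that in Bs cells. These comparisons share groups, so they are not independent. p-values measure the spread between these samples only. Exact permutation tests used all 70 arrangements. Python 3.11.15, numpy 2.4.6, scipy 1.17.1, pandas 2.3.3 and matplotlib 3.10.9 did the rest, and the fit was tested on simulated data. Precision is limited by the number of arrays.

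The members and lists were chosen with earlier results of these data known. All member probe sets are reported; of the other lists, counts and up to 3 genes of smallest adjusted p in a comparison, by the probe set with the highest mean. Marker genes were named after their values were seen. The marker lists cover B, B1a and follicular B cells, T and NK cells, macrophages, mast cells, platelets, eosinophils, neutrophils, erythroid cells, dendritic cells, and stroma with mesothelium. Deviations from group means over 13636 probe sets correlated at 0.128 to 0.686 for the 4 same-numbered pairs of Bs arrays of the 2 strains. Differently numbered Bs pairs gave -0.575 to 0.28, and same-numbered B1a pairs 0.0156 to 0.228. Whether the numbers mark pairs is not stated in the sources used here. The main fit had no block, so its p-values ignore any such pairing, and a replicate block was run as an alternative. Alternatives changed the filter, floor, normalization, groups fitted, variance model, replicate block, threshold and arrays. A planned comparison of protein sequences was not run.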

Additional observations from a re-analysis of the deposited data

Results flagged for a closer look

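In 12 of 82 groups of 4 arrays, 1 array lay far from the other 3 by Dixon's criterion. Its nominal rate of about 1 in 20 holds for continuous values without ties. Where 3 arrays were tied at the floor or by rounding, any other value passed it. The count therefore cannot be set against that rate. Most of the 12 are small steps. For Hspa1b, 1427127_x_at was lowest on Sle2c1 B1a array 4 at 1.70 units (others 2.12 to 2.17), and 1427126_at was highest on B6 Bs array 1 at 0.51 (others at the floor of 0.495). For Hsp90aa1, 1433251_at was highest on Sle2c1 B1a array 4 at 1.24 (others up to 0.54), and 1438902_a_at was lowest on B6 Bs array 3 at 3.89 (others 3.99 to 4.01). For Hspa8, 1431182_at was lowest on Sle2c1 B1a array 4, at the floor of 0.495 (others 1.41 to 1.57), and 1455789_x_at was lowest on Sle2c1 Bs array 4 at 3.59 (others 3.80 to 3.83). Hspb1 1422943_a_at was highest on Sle2c1 B1a array 4 at 1.33 (others at the floor) and on B6 Bs array 3 at 1.16 (others up to 0.60). Hspb1 1425964_x_at was highest on Sle2c1 B1a array 1 at 0.75 and on Sle2c1 Bs array 3 at 0.86 (others at the floor). Hspd1 was highest on B6 Bs array 1 at 2.76 (others 2.73), and Hspe1 1450668_s_at on Sle2c1 Bs array 4 at 3.36 (others 3.31). Sle2c1 B1a array 4 accounts for 4 of the 12.

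The strain difference of Hsp90aa1 1441827_x_at in B1a cells exceeded that in Bs cells by 0.38 units (limma interaction adjusted p = 0.0442).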

How the results depend on the processing

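The number of chaperone probe sets past the test between Sle2c1 and B6 B1a cells was 1 in place of 2 with the 40th percentile required on all 16 arrays, with no floor, with quantile normalization, median centring or equal median and spread, with only the groups compared, and without the 4 arrays that stood apart; it was 0 with a replicate block within each cell type, an alternative chosen after seeing the data. The interaction count was 0 in place of 1 under these settings, with only the groups compared not applicable, and under the planned replicate block. Between B6 B1a and Bs cells it was 5 in place of 8 with the all-array filter and with median centring. With single arrays left out the counts ranged from 0 to 3 (strain in B1a), 0 to 1 (interaction), 0 to 0 (strain in Bs), 5 to 8 (B1a minus Bs, Sle2c1) and 6 to 9 (B6). A block for replicate number left the Bs strain count at 0. With no floor the median of all probe sets in Sle2c1 B1a minus Bs was -0.19, and with median centring that of the strain difference in B1a cells was -0.09, beside 0.015. Differences that changed sign were small: Hspa8 1455789_x_at between strains in B1a (0.02 with quantile normalization and with equal spread) and B1a minus Bs in Sle2c1 (0.09 and 0.01), Hsp90aa1 1438902_a_at (0.05, B1a minus Bs in Sle2c1, quantile; -0.12, strain in B1a, median centring), Hspd1 (-0.07, strain in B1a) and Hsph1 1425993_a_at (-0.02, B1a minus Bs in Sle2c1), both with median centring. With single arrays left out, Hsp90aa1 1438902_a_at (strain in B1a) ranged from -0.01 to 0.02, Hspb1 1422943_a_at from -0.04 to 0.30 (strain in Bs) and -0.34 to 0.06 (B1a minus Bs in Sle2c1), and Hsph1 from -0.05 to 0.06. Of 793 values of single results under alternatives 738 kept direction and side of the threshold, and of 992 with an array left out 946 did. The cause of these changes was not tested. Signal over the floor limits Hspb1, Hspa1a in Bs cells and Hsp90aa1 1433251_at.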
